A study of Mus musculus with 30 samples.

Results

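Mouse embryonic stem cells without SRCAP for 8 h were compared with control cells of the same line, as the latest time of a course of nuclear RNA. The 4 libraries concerned, 2 of each group among the 30 of the series, are those that the labels give as SYAT without treatment and as SYAT with IAA for 8 h. SYAT is a CGR8 mouse embryonic stem cell line in which both Srcap alleles carry YPet and an auxin-inducible degron (AID). It comes from 1 homozygous clone that also expresses the plant F-box protein OsTir1 from the EF1a promoter of a lentivirus and was sorted for the loss of YPet under auxin. The auxin indole-3-acetic acid (IAA, 500 µM) makes OsTir1 hand the tagged protein to the proteasome, and the control cells received auxinole, which blocks OsTir1, so the groups differ in both compounds. Cells of both groups grew in serum with LIF, and nuclear RNA was taken from 500000 cells per sample in biological duplicates. For comparison the series holds 2 libraries each after 2, 4 and 6 h of IAA. It also holds 4 libraries of parental CGR8 cells without a degron (IAA for 4 h against control). The labels give no auxinole for these CGR8 controls. A further 8 libraries come from SYAT cells that expressed wild-type (wtSRCAP) or catalytically dead (cdSRCAP) SRCAP from a doxycycline-inducible promoter for 24 h. These were taken with IAA for 4 h or as controls, for which the labels give auxinole. According to the paper, these cells were sorted for similar, high levels of mCherry fused to the expressed SRCAP.

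SRCAP is the ATPase subunit of a large chromatin remodelling complex that replaces H2A in nucleosomes with the variant H2A.Z. H2A.Z marks the nucleosomes beside active promoters and the bivalent promoters of developmental genes in embryonic stem cells, where Polycomb complexes keep transcription low. Nuclear RNA is rich in recently made transcripts, so it follows changes of transcription more closely than whole-cell RNA does.

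The exon columns of the count table held 19576591 and 22873893 reads in the control libraries (replicates 1 and 2) and 21177339 and 22518456 after 8 h. Among the 10 libraries of the course, the second 6 h library stood apart, with 0.529% of its exon counts on mitochondrial genes where the others had 1.80 to 2.44%. The second 8 h library had the highest ratio of intron to exon counts, 1.19 against 1.00 to 1.10 in the others. Srcap itself (chr7:127511983-127561219 of mm10, plus strand) had 815 and 936 normalized exon counts in the controls and 917 and 1201 after 8 h (0.27 ± 0.13 on the log2 scale, SE; adjusted p = 0.288). The groups overlapped, and since the degron acts on the protein this transcript checks neither its loss nor the labels. Markers of embryonic stem cells summed to 46888 and 56836 normalized counts in the controls and 57661 and 56993 after 8 h, while 2-cell-like markers summed to 9.31 and 16.9 and to 29.0 and 5.04, with Tcstv1 at 0 and none of the 10 genes abundant enough to be tested.

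After 8 h, 460 genes were lower and 174 were higher at an adjusted p under 0.05 and a log2 fold change beyond 0.5, which is 2.4% and 0.906% of the 19205 genes tested in the exon columns. The lowered genes had a median log2 fold change of -0.89 (range -3.24 to -0.50), and 172 of them were beyond 1. The raised genes had a median of 0.85 (0.51 to 2.69), and 63 were beyond 1. Over all tested genes the median was 0.02, and 3890 genes had an unadjusted p under 0.05. In bulk nuclear RNA, less RNA per cell and fewer cells that make it cannot be told apart. In 619 of the 634 called genes (97.6%) the 2 controls and the 2 libraries after 8 h did not overlap, against 44.9% of all tested genes. Protein-coding genes made up 456 of the lowered and 165 of the raised genes. These counts came from edgeR's quasi-likelihood test fitted to all 10 libraries of the course with the replicate number as a block, and they rest on that block: without it 0 genes were called lower and 1 higher, Zfp423, while 2606 genes had an unadjusted p under 0.05. With the block and without any 1 of the 4 libraries, 0 genes passed in either direction (smallest adjusted p 0.143 to 0.220), while the medians of the 460 and 174 genes ran from -0.91 to -0.89 and from 0.82 to 0.88, and without the 6 h libraries 1390 were lower and 840 higher. DESeq2 called 501 lower and 252 higher with the block and 349 and 114 without it. A called gene below is therefore one that passed the blocked test over the 10 libraries.

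**Figure D1:**
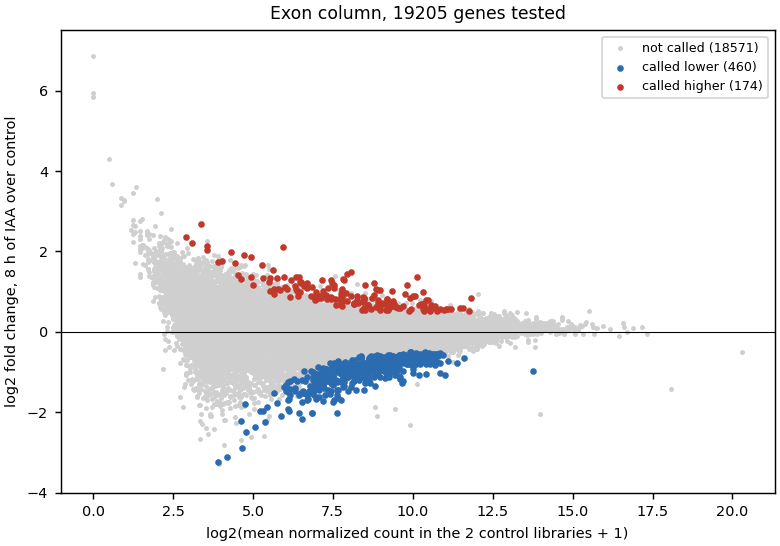
Log2 fold change of each of the 19205 tested genes after 8 h of IAA over control (vertical axis) against log2 of its mean normalized exon count in the 2 controls plus 1 (horizontal axis), with 460 genes called lower in blue, 174 called higher in red and the others in grey. Called genes are found at high and low counts, and the lowered outnumber the raised.

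Lowered genes are named here from the protein-coding calls with a mean of at least 100 normalized counts and groups that did not overlap, so larger folds of less abundant genes are left out. Map2k6 (chr11:110399122-110525522), the kinase that activates p38 MAP kinases, had 191 and 206 normalized exon counts in the controls and 42.0 and 55.4 after 8 h, 4.08-fold less on average, with a log2 fold change of -2.02 ± 0.23 (SE, adjusted p = 0.0141). Prrg3, a transmembrane protein with a Gla domain, had 188 and 171 against 49.0 and 57.9 (-1.74 ± 0.26, adjusted p = 0.0177). The groups were far apart in both genes, with replicates closer to each other than to any library of the other group. Lipa, the lysosomal acid lipase that releases cholesterol from its esters, had 236 and 197 counts under control conditions and 75.0 and 59.6 after 8 h (-1.69 ± 0.21). Smpd1, the acid sphingomyelinase, had 312 and 278 against 133 and 84.0 (-1.46 ± 0.23), and its second library after 8 h was the lowest of the 4. Adat2, the catalytic subunit of the deaminase that makes inosine at the wobble position of tRNAs, had 215 and 187 against 68.0 and 60.5 (-1.64 ± 0.20), a value that may include reads of Pex3, which lies on the opposite strand of the same region. By the rule of choice, no library after 8 h reached a control in any of these 5 genes. Ppfia3, a liprin of the presynaptic active zone, had 157 and 178 in the controls and 55.0 and 60.5 after 8 h (-1.54 ± 0.19) and overlaps the antisense gene Mtag2. Whether the authors' counting used the strand is not given in the sources used here, so such overlapping genes could not be separated.

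Among more abundant lowered genes with the smallest adjusted p, Ddx19b, an RNA helicase of mRNA export, went from 1828 and 1844 counts to 997 and 825 (-1.02 ± 0.11, adjusted p = 0.0141). Zzef1, a protein with zinc finger and EF-hand domains, went from 1340.4 and 1367 to 594 and 718 (-1.05 ± 0.11), and Calcoco1, an autophagy receptor and transcription coactivator, from 757 and 882 to 366 and 341 (-1.21 ± 0.14). Zik1, a KRAB-type zinc finger gene, had 461 and 438 against 194 and 159.5 (-1.35 ± 0.14). In these 4 genes the fall was to between 0.393 and 0.496 of the control mean and the replicates of a group stood close together.

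**Figure D2:**
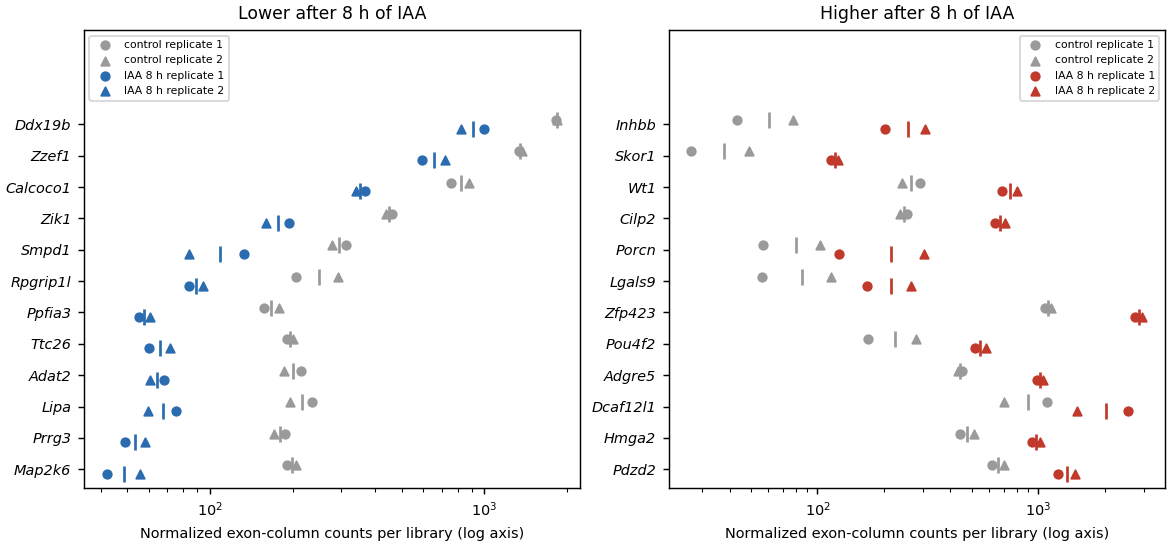
Normalized exon counts per library (log axis) of 12 genes called lower (left) and 12 called higher (right) after 8 h, with circles for replicate 1, triangles for replicate 2 and vertical ticks for the mean of the 2 libraries, in grey for control and in colour for IAA. The naming rule required the 8 h libraries to lie outside the range of the controls in every gene drawn. The smallest gap was in Porcn, where control replicate 2 had 103 counts and 8 h replicate 1 had 125.

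The raised genes were named by the same rule, which leaves out called genes of lower counts. Inhbb (chr1:119415465-119422248), the beta B subunit of activins and inhibins, had 43.4 and 77.7 normalized exon counts in the controls and 203 and 308 after 8 h, 4.22-fold more on average (2.12 ± 0.22, adjusted p = 0.0141). Skor1, a SKI-family corepressor of SMAD signalling in neurons, had 26.9 and 49.0 against 115 and 124 (1.67 ± 0.24). Both genes were low in the controls, with more counts in control replicate 2 than in replicate 1. Both libraries after 8 h were above either control, as the rule required. Wt1, a zinc finger factor of kidney and gonad development, had 289.6 and 241 against 682 and 799 (1.49 ± 0.16), and Pou4f2, a POU factor of retinal ganglion cells, 169.6 and 279 against 514 and 579 (1.33 ± 0.17). Zfp423 (chr8:87661810-87959595), a multi-zinc-finger factor that acts with EBF and BMP-SMAD proteins, had the smallest adjusted p of the comparison (0.00752), with 1076 and 1142 in the controls and 2738 and 2945 after 8 h (1.36 ± 0.10). Its replicates were close in both groups, and it is the gene that also passed without the block. Hmga2, an architectural chromatin protein of embryonic tissues, had 444 and 509 against 933 and 1019 (1.04 ± 0.11).

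The other raised genes named by size or by adjusted p included Porcn, the acyltransferase that makes Wnt ligands fit for secretion, with 56.9 and 103 counts under control conditions and 125 and 304 after 8 h (1.37 ± 0.20), and Cilp2, a cartilage matrix protein, with 254 and 236 against 634 and 709.5 (1.45 ± 0.24). Porcn was higher in replicate 2 of both groups, and so was Lgals9, a galectin of immune regulation, with 55.9 and 115 against 168 and 264 (1.36 ± 0.21). Dcaf12l1, a WD-repeat protein, went the other way between replicates, with 1094 and 701 against 2539.6 and 1494 (1.15 ± 0.12), so that both replicate numbers rose although their levels differed. Adgre5, the adhesion receptor CD97, had 449.9 and 435 against 986 and 1054 (1.21 ± 0.14), and Pdzd2, a PDZ-domain protein, 618 and 696 against 1228 and 1459 (1.03 ± 0.11). In CGR8 cells, which lack a degron, Adgre5 was at a log2 fold change of 0.84 after 4 h of IAA. Pdzd2 was at -0.68, so that its sign was opposite there. Porcn, Lgals9, Pou4f2 and Wt1 stood there at 0.44, 0.48, 0.41 and 0.20. Dcaf12l1 and Hmga2 stood at 0.03 and -0.03, and Skor1 and Cilp2 both at -0.22. Pdzd2 stood at 0.07 in wtSRCAP and -0.04 in cdSRCAP cells after 4 h of IAA. Adgre5 overlaps Ddx39 on the other strand, and Ttc26, Zzef1, Ddx19b, Pdzd2 and Hmga2 overlap small or predicted genes.

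Promoters of 6 called genes are shown because promoters are where SRCAP is known to place H2A.Z, 4 from the lowered genes (3 of them ciliary) and 2 from the raised genes. Each is the 120 bases before the RefSeq start, 5′ to 3′ along the gene, in GRCm38.p6, with motif matches in capitals.
Map2k6, chr11:110398982-110399101, plus strand: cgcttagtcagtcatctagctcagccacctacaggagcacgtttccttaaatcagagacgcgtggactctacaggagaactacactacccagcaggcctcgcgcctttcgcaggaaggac
Ttc8, chr12:98920454-98920573, plus strand: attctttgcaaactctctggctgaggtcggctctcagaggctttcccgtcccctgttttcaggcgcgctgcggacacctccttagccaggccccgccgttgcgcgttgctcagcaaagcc
Ttc30a1, chr2:75981968-75982087, minus strand: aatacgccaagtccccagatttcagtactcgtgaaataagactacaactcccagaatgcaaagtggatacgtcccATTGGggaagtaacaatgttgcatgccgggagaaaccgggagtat
Bbs5, chr2:69647051-69647170, plus strand: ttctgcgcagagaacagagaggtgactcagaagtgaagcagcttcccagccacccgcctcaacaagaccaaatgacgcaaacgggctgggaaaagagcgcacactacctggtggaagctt
Inhbb, chr1:119422249-119422368, minus strand: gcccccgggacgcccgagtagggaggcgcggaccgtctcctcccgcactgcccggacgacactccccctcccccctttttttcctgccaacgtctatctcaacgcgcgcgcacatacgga
Zfp423, chr8:87959596-87959715, minus strand: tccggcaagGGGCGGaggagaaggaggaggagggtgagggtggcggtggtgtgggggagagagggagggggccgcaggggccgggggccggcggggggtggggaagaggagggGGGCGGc
Both strands were searched for 8 motifs: CCAAT (NF-Y), GGGCGG (SP and KLF factors), CCGGAAG (ETS), TATAAA for the TATA box, CACGTG (E-box), AGATAA for GATA factors, GCCATNTT (YY1, where N is any base) and a pair of GCGC with 2 bases between them (NRF1). Ttc30a1 held 1 CCAAT match on the reverse strand, a motif found in 21.3% of the 32851 windows of this length before RefSeq starts. Zfp423 held 2 matches of GGGCGG, found in 26.5% of windows. The other 4 held none of the 8 motifs in this window. No comparison of promoter sequence between lowered and raised genes was made, because fewer than 80% of the genes had a promoter in the tables at hand (348 of 456 lowered and 116 of 165 raised protein-coding genes).

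Among the gene lists read here, genes of the primary cilium formed the group with the most lowered members. This list and those below were written with earlier results of these data known, so their shares are not independent of them. The primary cilium is a sensory antenna built on a centriole, in which intraflagellar transport (IFT) trains carry cargo, the BBSome moves membrane receptors and the transition zone gates entry, and Hedgehog signalling runs through it to the GLI factors. Of 89 ciliary genes tested, 24 (27.0%) were called lower, against 2.4% of all genes, and 2 were called higher. The median log2 fold change of the 89 genes was -0.55, against 0.02 over all genes, and at an unadjusted p under 0.05, 50 were lower and 3 higher, against 12.0% and 8.24% of all genes. Summed over the list, the level was 36921 and 37828 normalized counts in the controls and 30657 and 31266 after 8 h. The 24 calls became 0 without the block and 0 without any 1 of the 4 libraries, and 43 without the 6 h libraries.

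Ttc8 (BBS8), a BBSome subunit, had the lowest fold of the called ciliary genes, with 128 and 98.8 normalized exon counts in the controls and 32.0 and 23.5 after 8 h (-2.03 ± 0.31, adjusted p = 0.0184). Bbs5, another BBSome subunit, had 92.1 and 98.8 against 30.0 and 36.1 (-1.52 ± 0.32), and Bbs1 had a log2 fold change of -1.46. In both genes given by library, replicates of a group differed by far less than the groups. IFT genes of the B complex included Ttc26 (IFT56), with 190.3 and 200.0 against 60.0 and 71.4 (-1.56 ± 0.24), and Ttc30a1 (IFT70), with 173 and 193 against 51.0 and 61.3 (-1.70 ± 0.21). Its close copy Ttc30b had -2.59 and was not called, and reads of such near-identical genes may have been split between them. Ift22 (-1.37), Cluap1 (IFT38, -1.13) and Ift172 (-0.56) were also called, as were Wdr19 (IFT144, -1.45) and Ift122 (-0.78) of the A complex that returns cargo to the base. Of the kinesin-2 motor, which drives outward transport, the subunits Kif3b (-0.83), Kif3c (-1.11) and Kifap3 (-0.57) fell.

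At the transition zone, Rpgrip1l, a scaffold of the gate, had 206 and 292 counts under control conditions and 84.0 and 94.0 after 8 h (-1.48 ± 0.28), and it overlaps the predicted genes Gm45428, Gm45662 and Gm36243. Further called genes there were Tctn3 (-1.26), Cc2d2a (-1.15), Cep290 (-0.85) and Tmem237 (-0.82). Arl13b, the ciliary membrane GTPase, had -1.04, the planar polarity effector Intu -0.95, the GTPase Rab8a -0.62, and the distal appendage genes Cep89 and Cep164 -0.70 and -0.61. The 2 members that rose were Gli1 (0.59) and Gli2 (0.69), the transcription factors through which Hedgehog signalling acts. In CGR8 cells after 4 h of IAA the median of the 89 genes was 0.00. There 5 were lower and 3 higher at an unadjusted p under 0.05, against 4.12% and 5.04% of all genes. In wtSRCAP and cdSRCAP cells after 4 h of IAA the medians were -0.45 and -0.39. At that level 20 and 16 genes were lower there, against 4.48% and 3.99% of all genes.

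**Figure D3:**
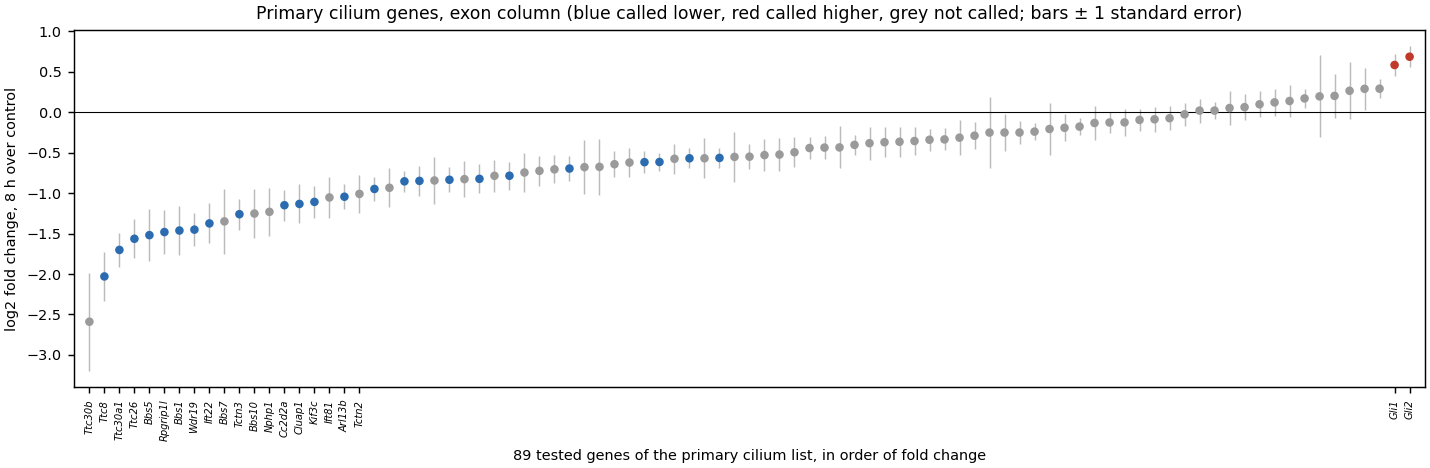
Log2 fold change after 8 h of IAA over control (points) with its standard error (bars) for the 89 ciliary genes, sorted by value, with called genes in colour, the others in grey, and names for genes beyond a log2 fold change of 1 and for raised calls. The lowered genes run from Ttc8 (-2.03) to Ift172 (-0.56), the median of all 89 is -0.55, and the raised calls are Gli1 (0.59) and Gli2 (0.69).

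A list of KRAB-type zinc finger genes, many of which bind TRIM28 and silence repeats, had 10 of 90 tested members called lower. The share of all genes was 2.4%, none of the list was called higher, and its median was -0.28. The strongest were Zfp772, with 75.5 and 61.6 normalized counts in the controls and 16.0 and 18.5 after 8 h (-1.96 ± 0.36), Zfp994, with 120.0 and 132 against 34.0 and 44.5 (-1.67 ± 0.32), and Zfp759, with 126 and 176 against 61.0 and 42.8 (-1.56 ± 0.28). In all 3 genes both libraries after 8 h were far below both controls. These genes lie in clusters of near-identical copies, so reads could have been shared among them. In CGR8 cells the list moved up, with a median of 0.48 and 37 of its genes higher at an unadjusted p under 0.05, against 5.04% of all genes there, and Zfp772, Zfp994 and Zfp759 stood at 0.71, 1.09 and 0.91. The medians were -0.57 in wtSRCAP and -0.20 in cdSRCAP cells. The list does not hold every KRAB-type gene, since Zik1, called lower above, was not a member.

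Of the SRCAP complex itself, 1 of 9 genes was called lower (11.1%, against 2.4% of all genes). This was Dmap1, a subunit shared with the TIP60 complex. It had 556 and 575 counts under control conditions and 300.1 and 254 after 8 h (-1.03 ± 0.17, adjusted p = 0.0216). Other subunits stood at -0.53 (Yeats4), -0.47 (Vps72), -0.14 (Actr6) and 0.00 (Znhit1), none of which passed. The H2A.Z genes and their other exchange factors had no call among 14, with H2afz at 0.16, H2afv at -0.32, the chaperone Anp32e at 0.28 and Ep400 at 0.16. The largest change of that list was Kat5, the TIP60 acetyltransferase, with 693 and 748 against 487 and 544 (-0.48 ± 0.14, adjusted p = 0.106), where the groups did not overlap but the test was not passed.

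In the next 4 lists the counts stand against 2.4% of all genes called lower. tRNA modification enzymes had 3 of 52 genes lower (median -0.14): Adat2, the dihydrouridine synthase Dus2, with 313 and 307 against 153 and 196 (-0.84 ± 0.18), and Alkbh8, a wobble uridine methyltransferase, with 1018 and 998 against 554 and 579 (-0.83 ± 0.13). The groups were apart in each of the 3, and their log2 fold changes in CGR8 cells were 0.09, 0.03 and 0.00. The BLOC-1 complex of lysosome-related organelles had 1 of 8 called, Bloc1s6, with 504 and 449.9 against 291 and 201 (-0.97 ± 0.15). Mbd1, a reader of methylated CpG, was the 1 call among 15 DNA methylation and TET genes, with 599 and 613 against 305 and 333 (-0.93 ± 0.13). Among 31 genes of homologous recombination and Fanconi repair 1 was called, Fancd2, with 1183 and 1345 against 771 and 959.7 (-0.55 ± 0.10), a share near that of all genes, while 11 were lower at an unadjusted p under 0.05, against 12.0% of all genes, and the list's median was -0.23.

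Lowered lists of ATF4 targets and cholesterol genes were also low in cells without a degron. Targets of ATF4, the factor of the integrated stress response, had 4 of 42 called lower, against 2.4% of all genes (median -0.18): Chac1, a glutathione-degrading enzyme (-1.46), Aldh18a1 of proline synthesis (-0.77), Mthfd2 of mitochondrial folate metabolism (-0.64) and the cationic amino acid transporter Slc7a1 (-0.65). In CGR8 cells the median of that list was -0.44, with 24 genes lower at an unadjusted p under 0.05, against 4.12% of all genes there, and Chac1 stood at -3.04. The list of cholesterol synthesis and uptake, which also holds the fatty acid desaturase Scd2, had 3 of 31 genes lower, against 2.4% (median -0.26). They were Insig2, which holds back SREBP processing (-1.03), Scd2 (-0.98) and Nsdhl, a demethylation enzyme of cholesterol synthesis (-0.76). The median in CGR8 was -0.39 with 16 lower, against 4.12%, and the 3 genes stood there at 0.31, -0.59 and -0.41, so Insig2 differed in sign. Cyp1a1, the cytochrome induced by the aryl hydrocarbon receptor, was the 1 call among 10 targets of that receptor, against 2.4%. It had 794 and 833 counts under control conditions and 350.1 and 317 after 8 h (-1.28 ± 0.17), and stood at -1.73 in CGR8. Those 10 targets had a median of 0.02 in CGR8, with 2 lower and 1 higher at an unadjusted p under 0.05. The part of IAA or auxinole in these groups at 8 h was not tested. CGR8 cells were collected at 4 h, and the labels give no auxinole for their controls.

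Lineage factors made up the groups with most raised members. Of 30 mesoderm and endoderm factors tested, 4 rose, against 0.906% of all genes, and none fell (median 0.54). They were Gata3, with 31.0 and 28.7 normalized counts in the controls and 102 and 114 after 8 h (1.86 ± 0.28), Meis1, with 46.5 and 59.1 against 141 and 130.2 (1.35 ± 0.22), Tbx20, a heart T-box factor, with 282 and 181 against 688 and 439 (1.28 ± 0.16), and Meis2, with 49.6 and 77.7 against 110.0 and 165 (1.11 ± 0.21). All 4 kept the groups apart, and Tbx20 was the most abundant of them. Gata6 (10.3 and 8.44 against 31.0 and 29.4, 1.68, adjusted p = 0.0690) and T (0.97) did not pass. Of 28 neural factors, 4 rose, against the same 0.906%, and none fell (median 0.38), among them Zfp423, Irx3 (32.1 and 27.0 against 81.0 and 71.4, 1.37) and Pax6 (118 and 191 against 228 and 348, 0.90). Only 7 of 39 Hox genes were abundant enough to be tested, none was called, and their median was 0.47, with Hoxd13 at 66.2 and 52.3 against 107 and 85.6 counts (0.70, adjusted p = 0.203). Polycomb complex genes had no call among 32 (median 0.11), with Phf1 at 0.75. In CGR8 cells after 4 h of IAA, Gata3, Meis1, Tbx20 and Meis2 stood at 0.36, 0.74, 0.30 and 0.48. Zfp423, Irx3 and Pax6 stood there at 0.40, -1.18 and 0.54. The medians there were -0.03 for the mesoderm and endoderm list and -0.41 for the neural list.

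Pluripotency genes mostly did not pass the test. Of 24 naive pluripotency genes 1 was called higher, Nanog (4.17%, against 0.906% of all genes). It had 869 and 1496 counts under control conditions and 1624 and 2039.6 after 8 h (0.68 ± 0.13, adjusted p = 0.0288). Nanog was higher in replicate 2 of each group and stood at 0.63 in CGR8 cells. Pou5f1 (0.02), Sox2 (-0.11), Klf4 (0.12) and Esrrb (0.15) did not pass. At an unadjusted p under 0.05, 7 of the 24 were higher and 0 lower, against 8.24% and 12.0% of all genes, and the list's median was 0.21. In CGR8 cells 6 of the 24 were higher and 0 lower at that level, against 5.04% and 4.12% of all genes there. The list's median in CGR8 was 0.06. After 8 h, 1 of 19 formative and primed genes was called higher, the cadherin Cdh2 (5.26%, against 0.906% of all genes). It had 552 and 279 against 787 and 433 counts (0.57 ± 0.12). The groups overlapped, and the call came from the difference within each replicate number. Otx2 (-0.31), Fgf5 (0.28) and Dnmt3b (-0.04) were not called. At an unadjusted p under 0.05, 4 of the 19 were higher and 0 lower. In CGR8 cells 6 were higher and 2 lower at that level (median 0.01).

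Signalling lists each gave few raised genes, to be read against 0.906% of all genes raised. Bmp4, a BMP ligand, was the 1 call of 32 BMP and Nodal genes, with 187 and 252 against 372 and 515 (1.01 ± 0.14). It stood at 0.43 in CGR8 cells, where the list's median was -0.12. In the Wnt list 2 of 39 rose, Porcn and Sfrp1, a secreted Wnt antagonist, with 591 and 634 against 1021 and 869.9 (0.62 ± 0.12). The FGF and ERK list had 2 of 23, both feedback inhibitors: Spry1 (715 and 601 against 1121 and 926, 0.64) and the ERK phosphatase Dusp5 (238 and 197 against 378 and 299, 0.64). Groups did not overlap in any of these 4 ligand and feedback genes given by library. Cntfr, the receptor subunit for ciliary neurotrophic factor, was the 1 call of 20 LIF and CNTF receptor genes, with 206 and 144 against 410.1 and 390.4 (1.21 ± 0.17), and it stood at 0.76 in CGR8. Immediate early genes had 2 of 20 raised, Fosl2 (1.01) and Myc, with 1968 and 2040.0 against 2974 and 2877 (0.55 ± 0.11). The p53 target list had 2 of 26, Plk3 (0.80) and Gadd45a (0.77), glycolysis 1 of 22, Pfkfb3 (0.62), and G1/S and replication genes 1 of 40, cyclin D2 (Ccnd2), with 458 and 269 against 927 and 683 (1.17 ± 0.19). None of the lists in this group had a lowered call.

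No member was called in 4 further lists of general cell functions: 83 cytosolic ribosomal protein genes (median 0.10), 79 of the respiratory chain (-0.08), 43 proteasome genes (0.03) and 30 G2/M genes (0.12). Nearest to a call among them were Kif23, a kinesin of cytokinesis (0.38, adjusted p = 0.0576), and Psmd10, an assembly chaperone of the proteasome (-0.91, adjusted p = 0.0765), with Ndufa9 of complex I at -0.41 and Rps10 at 0.55. Of markers for other cells, fibroblast genes summed to 14676 and 17747 normalized counts in the controls and 17550 and 17975 after 8 h, with Postn at 0 and no call among 7 tested. Trophoblast markers summed to 2725 and 1671 against 3382 and 2123, with Tpbpa at 0 and Gata3 as the 1 call among 7, and primitive endoderm markers to 3537 and 2492 against 3826 and 2701, with no call among 9. The groups overlapped in all 3 of these sums, while within each replicate number the sum was higher after 8 h, and their part in the values of lineage genes was not tested. The single call among the 10 stem cell markers was Nanog.

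**Figure D4:**
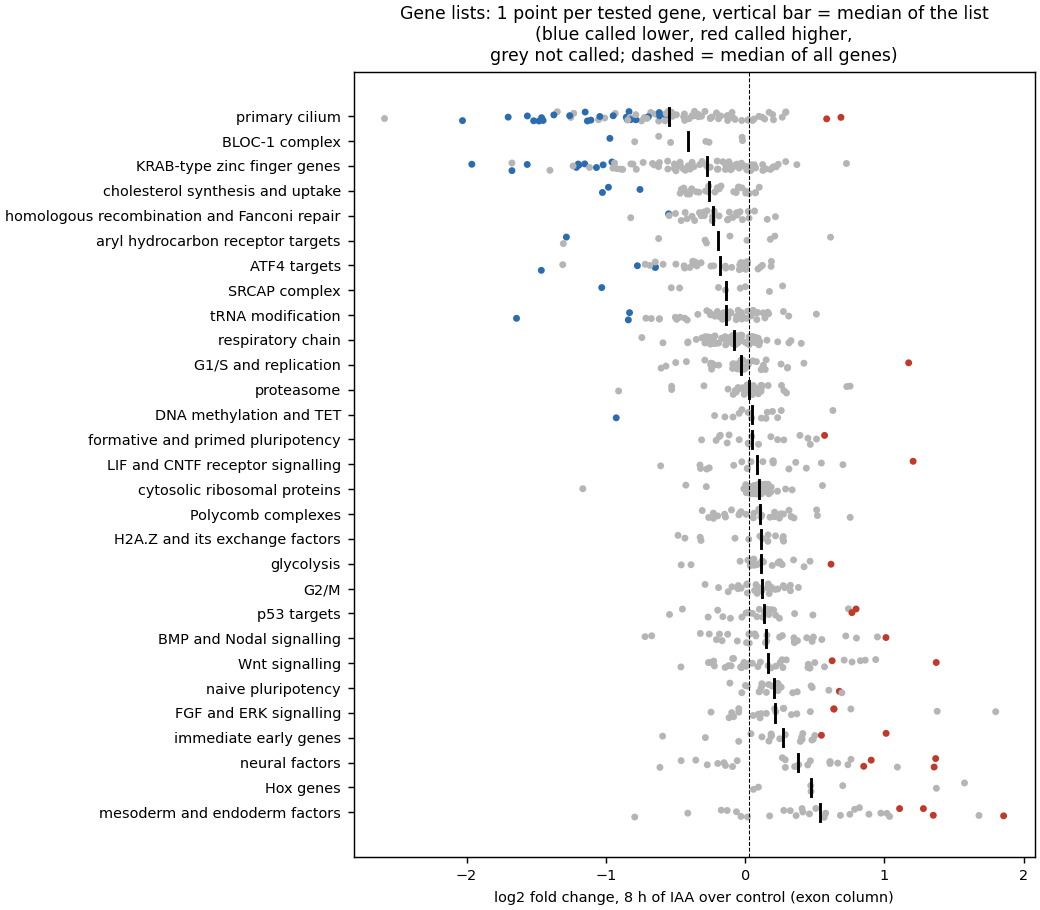
Log2 fold change after 8 h of IAA over control for every tested gene of 29 gene lists, 1 point per gene, with calls in blue (lower) and red (higher), a black bar at each list's median and a dashed line at the median of all genes (0.02). The ciliary genes have the lowest median (-0.55) and most blue points, and the mesoderm and endoderm factors have the highest median (0.54).

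The intron columns of the same libraries gave few calls, 2 lower and 5 higher of 14719 genes tested (0.0136% and 0.034%). DESeq2 called 397 lower and 326 higher there, and 2840 genes had an unadjusted p under 0.05 in edgeR. The lowered calls were Bloc1s6 and Ttc8. Bloc1s6 went from 249 and 222 to 10.4 and 8.45 normalized intron-column counts (-4.63, adjusted p = 0.0277), against -0.97 in the exon column, and Ttc8 from 198 and 166 to 30.0 and 23.8 (-2.76). Sgk1, a serum- and glucocorticoid-induced kinase, rose from 673 and 1042 to 3004 and 3593 (1.97, against 0.83 in the exon column). Its exon value in CGR8 cells after 4 h of IAA was 0.49. Trp73, a p53-family factor, rose from 169 and 203 to 527 and 689 (1.70), while its exon value of 0.41 did not pass (adjusted p = 0.105), and Cntfr rose from 231 and 208 to 636 and 739 (1.65). Adcy5, an adenylyl cyclase, and Nol4l were at 0 in both controls and at 132 and 296 and 139.8 and 243 counts after 8 h, at least 74.3-fold and 66.4-fold higher in that column when the controls are set at 3 counts over the group, against log2 fold changes of 1.55 and 0.90 in the exon column. Such zeros are a feature of the column: 303 of 11069 genes with at least 50 exon counts everywhere had 50 or more intron-column counts in one library and 0 in another, and 539 of 626 single-exon genes without overlap had counts there. Intron-column values therefore hold exonic reads and cannot be read as unspliced RNA alone. Of the genes called in the exon column, 398 lowered and 151 raised were tested in the intron column. Their medians there were -0.91 and 0.90, with the same direction in 396 and 151. Both columns come from the same libraries and share exonic reads, so this match of direction is not independent of the exon calls. Dcaf12l1, for example, had the same raw counts in both columns, 1058 and 831 in the controls and 2539 and 1779 after 8 h.

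Between 6 h and 8 h no gene passed the test in either direction (0.0% of 19205 genes), and 841 had an unadjusted p under 0.05, with 0 calls by DESeq2 as well. Without the first 6 h library 2215 genes were lower and 1883 higher, but the 6 h group then held only the library with few mitochondrial counts, its spread was assumed to be that of the other groups, and the time and that library cannot be told apart. Earlier times share the control libraries with the 8 h comparison, so their values are given side by side. The 460 lowered genes had medians of -0.34 at 2 h, -0.68 at 4 h, -0.79 at 6 h and -0.89 at 8 h, and the 174 raised genes 0.40, 0.70, 0.85 and 0.85. Map2k6 stood at -0.44, -1.25, -1.96 and -2.02 at the 4 times, Inhbb at 1.32, 1.64, 2.63 and 2.12, and Zfp423 at 0.32, 0.99, 1.40 and 1.36. The ciliary list had medians of -0.17, -0.34, -0.48 and -0.55. In the same fit 0 genes were called lower at 2 h, 49 at 4 h and 498 at 6 h, and 0, 27 and 325 were called higher.

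Cells of other libraries, which share no samples with the 8 h comparison, were read over the same genes. In CGR8 cells, which lack the degron, the 460 lowered genes had a median of -0.02, and 32 of them (6.96%) were lower at an unadjusted p under 0.05, against 4.12% of all genes tested there. The 174 raised genes had a median of 0.19 in CGR8, and 38 of them (21.8%) were higher at that level, against 5.04% of all genes. Both shares were above the background in cells without a degron, and the part of this in the 8 h values was not tested. In wtSRCAP cells after 4 h of IAA the medians were -0.64 and 0.72, with 209 (45.5%) and 74 (42.5%) at that level in the same direction, against 4.48% and 2.93% of all genes. In cdSRCAP cells they were -0.66 and 0.60, with 210 (45.8%) and 48 (27.6%), against 3.99% and 1.65%. Map2k6 stood at 0.11 in CGR8, -0.80 in wtSRCAP and -1.40 in cdSRCAP cells, Inhbb at 0.29, 1.94 and 1.01, and Zfp423 at 0.40, 0.91 and 0.81. Whether wtSRCAP and cdSRCAP cells differ in these genes was not tested here. These fits had no block and called few genes by themselves: 2 lower in CGR8 (Slc1a4 and Atf4), 1 lower in wtSRCAP (Chac1) and none in cdSRCAP, none being higher in any of them. With the replicate number as a block, as in the 8 h test, CGR8 gave 180 lower and 320 higher, wtSRCAP 280 and 332, and cdSRCAP 245 and 100. These blocked fits of CGR8 cells held 4 libraries, and the 8 h fit to its own 4 libraries gave 906 lower and 419 higher.

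**Figure D5:**
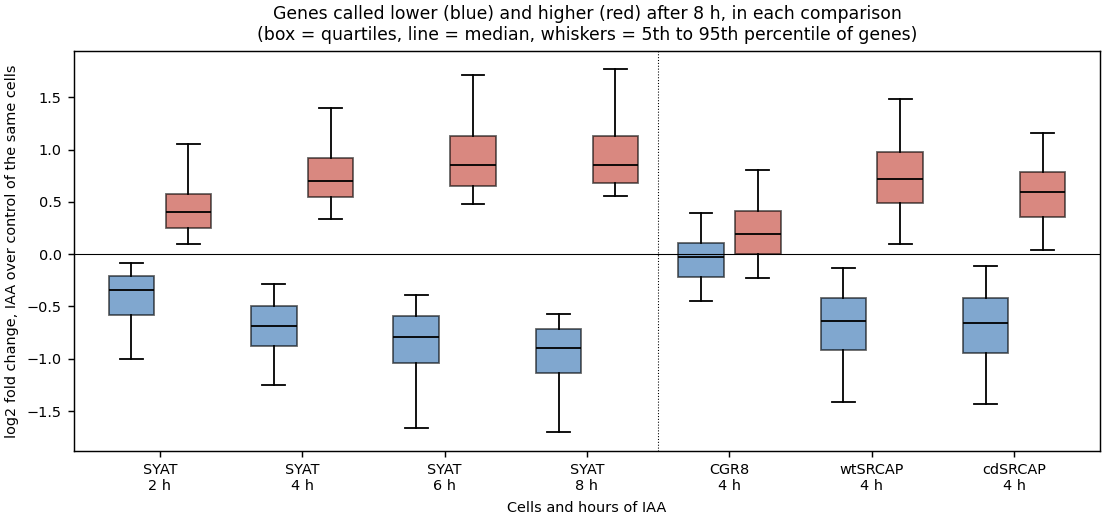
Log2 fold changes over the matched control (vertical axis) of the 460 genes called lower and the 174 called higher at 8 h, in each IAA comparison of SYAT cells (2, 4, 6 and 8 h), in CGR8 and in wtSRCAP and cdSRCAP cells (4 h), with boxes at the quartiles, a line at the median and whiskers from the 5th to the 95th percentile. The SYAT medians move from -0.34 and 0.40 at 2 h to -0.89 and 0.85 at 8 h, the 8 h box being fixed by the choice of genes, and the CGR8 medians are -0.02 and 0.19.

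The called genes were close in size to the other genes tested. Lowered protein-coding genes had a median length of 26.3 kb and 10 exons, raised ones 27.5 kb and 11 exons, and all tested protein-coding genes 23.8 kb and 9 exons. Per kilobase of exon, the control level was 71.2 counts in the lowered (quartiles 37.6 to 136), 63.2 in the raised (19.3 to 154) and 78.3 in all genes (18.4 to 247), so the lowered genes covered a narrower range of levels. Genes on the opposite strand overlapped 41.0% of the lowered, 44.2% of the raised and 44.3% of all. By chromosome, lowered genes made up from 1.24% of the tested protein-coding genes on chromosome 15 to 4.95% on chromosome 8 among the autosomes and X, with none on the Y.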

How the data were processed

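The authors aligned nuclear RNA-seq reads (NEBNext Ultra II Directional libraries) with STAR to mm10 and deposited raw counts per GENCODE vM25 gene in exons and in introns (featureCounts). The strand setting is not given in the sources used here. Counts were tested with edgeR 4.0.16 (R 4.3.3, quasi-likelihood, TMM, filterByExpr at 10 counts, Benjamini-Hochberg), DESeq2 1.42.0 being an alternative. Normalized counts are counts over TMM-scaled library size, times the mean size. The 8 h contrast used all 10 time course libraries with the replicate number as a block, leaving 4 residual degrees of freedom. The block, the members and the gene lists were chosen with earlier results of these data known. Same-numbered libraries deviated together in most pairs of groups (control and 8 h, r = 0.529), but the 10 pairs ran from -0.0091 (control and 6 h) to 0.762, so a pairing in every group was not found. CGR8 and wtSRCAP or cdSRCAP libraries were fitted without the block.

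Genes were named by a rule: called, protein-coding, a mean of 100 counts or more, groups apart, then the 8 largest changes and the 4 smallest adjusted p per direction, and of each list up to 4 called members or, with none called, those of smallest p. The other list members given in the text, such as the remaining ciliary genes, SRCAP subunits and pluripotency factors, were chosen after their values were seen. Coordinates and symbols came from mm10 annotation that matched 55141 of 55401 identifiers, and promoters from RefSeq. Counts were also simulated with 200 changed genes, all above the median level, and with the same replicate effect in every group. The exon test recovered 169 at a log2 change of 1, with 24 false calls, and 200 at 2. In the intron columns it recovered 31 and 188. Counts after 1 h of IAA in sorted G1 cells were not used here, nor were columns with the authors' own comparisons (fold changes and p-values). Some genes are not reported here.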

Additional observations from a re-analysis of the deposited data

How the results depend on the processing

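In the exon columns, 460 genes lower and 174 higher after 8 h became 0 and 1 without the replicate block, 0 and 0 without any 1 of the 4 libraries (smallest adjusted p 0.143 to 0.220), 750 and 363 without a filter on low counts, 906 and 419 with only the 4 libraries fitted, and 1390 and 840 without the 6 h libraries, a setting added after seeing the data. DESeq2 without the block gave 349 and 114, and DESeq2 with it stayed within 1.5 times. The 24 lowered ciliary genes became 0 without the block and without any 1 library, and 43 without the 6 h libraries. In the intron columns, 2 lower and 5 higher became 397 and 326 by DESeq2, 295 and 181 by DESeq2 without the block, 1 and 0 in edgeR without the block, 13 and 27 without the filter, 0 and 0 with only the 4 libraries or without any 1 library, and 726 and 440 without the 6 h libraries, and the higher calls fell to 1 when exon counts were subtracted. Between 8 h and 6 h, 0 calls became 2 lower without the filter, and ranged from 0 to 2215 lower and 0 to 1883 higher when 1 library was left out, the highest without 6 h replicate 1. For CGR8, 2 lower and 0 higher became 48 and 92 by DESeq2, 110 and 276 without the filter and 180 and 320 with the replicate block, and with 1 library left out they ranged from 3 to 890 lower and 0 to 1471 higher, the most without control replicate 2. For wtSRCAP, 1 lower and 0 higher became 14 and 22, 7 and 13, and 280 and 332 under the same 3 settings, and 0 lower without any 1 library. For cdSRCAP, 0 and 0 became 18 and 2, 5 and 5, and 245 and 100. None of the 88 genes named turned its direction under the settings run. Not all of the 88 had a call to lose, since lists without a call gave uncalled members. The call was lost for 67 without the block and for 5 with only the 4 libraries fitted. By DESeq2 it was lost for 15 without the block and for 1 with it. The cause of these shifts was not tested. The simulated exon test recovered 169 of 200 genes changed by a log2 fold of 1, all above the median level. Smaller changes were not simulated, nor were changes in less abundant genes. Every simulated group had the same replicate effect, whereas a pairing in every real group was not found.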
